A study of Mus musculus with 12 samples.

Results

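The genes described here are those of the nuclear-encoded mitochondrial respiratory chain, measured in mouse SCG, the superior cervical ganglion, whose sympathetic neurons supply the head and neck. They were taken by name, as genes with a probe set of 1 symbol that begins with Nduf, Uqcr, Atp5, Sdha to Sdhd, Cox4i, Cox5, Cox6, Cox7 or Cox8, leaving out the muscle forms Cox6a2 and Cox8b. This gave 88 of the 18193 genes measured. The 3 groups were SCG cells on flat polystyrene Petri dishes (2D), SCG cells within scaffolds of polystyrene (3D) and tissue of fresh ganglia, all from the CD1 strain with no transgene or drug named. For 2D the methods name glass bottom dishes instead. Both cultures shared a collagen coating and a medium with serum and nerve growth factor, and according to the methods a dish or scaffold received on average the cells of a pair of ganglia, so a culture need not be 1 animal. The paper places the arrays of both cultures some days after plating, whereas the tissue was freshly dissected. Time in culture thus goes with every comparison with tissue. For all groups the labels state 21 days of age, whereas the methods say that the mice were neonatal. Each group had 4 biological replicates on Affymetrix Mouse Genome arrays, 12 arrays in all. Nothing ties the replicates to separate animals, so the p-values measure the spread between these samples.

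The respiratory chain sits in the inner mitochondrial membrane. Complexes I and II pass electrons to ubiquinone, complex III to cytochrome c and complex IV to oxygen, and complex V, the ATP synthase, uses the proton gradient to make ATP. Neurons rely on this chain for most of their ATP, which pays for ion pumping and transmitter release. Its subunits come from nuclear genes and from the mitochondrial genome. The 88 genes code for 6 core subunits of complex I, which carry its catalytic centres, 28 accessory subunits of complex I, 8 factors that assemble it, 4 subunits of complex II, 8 of complex III, 17 genes of complex IV with their isoforms and 17 of complex V.

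The starts of 4 genes are shown because the results below turn on them or because they hold the sequences that are textbook marks of this gene family. Each is 250 bases before to 50 bases after a start in RefSeq (build GRCm38.p6), written 5′ to 3′ on the gene's strand. Capitals mark matches on either strand. Atp5e lies at chr2:174464052-174464351, minus strand. Uqcrh lies at chr4:116075021-116075320, minus strand, Atp5g3 at chr2:73911277-73911576, minus strand, and Cox7a1 at chr7:30183921-30184220, plus strand. The Atp5g3 window lies inside the gene, which spans chr2:73908447-73912464, and not at its outer end.
Atp5e: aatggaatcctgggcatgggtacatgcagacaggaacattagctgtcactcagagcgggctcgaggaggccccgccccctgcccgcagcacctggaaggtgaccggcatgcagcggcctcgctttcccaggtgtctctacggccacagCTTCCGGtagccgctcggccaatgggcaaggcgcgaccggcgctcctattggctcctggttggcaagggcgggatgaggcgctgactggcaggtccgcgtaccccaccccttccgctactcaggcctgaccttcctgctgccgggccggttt
Uqcrh: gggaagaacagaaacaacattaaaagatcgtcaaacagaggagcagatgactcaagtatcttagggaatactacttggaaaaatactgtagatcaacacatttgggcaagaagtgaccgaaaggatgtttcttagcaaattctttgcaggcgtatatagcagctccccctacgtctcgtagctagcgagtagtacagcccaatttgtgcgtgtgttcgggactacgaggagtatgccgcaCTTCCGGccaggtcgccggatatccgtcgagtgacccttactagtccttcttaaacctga
Atp5g3: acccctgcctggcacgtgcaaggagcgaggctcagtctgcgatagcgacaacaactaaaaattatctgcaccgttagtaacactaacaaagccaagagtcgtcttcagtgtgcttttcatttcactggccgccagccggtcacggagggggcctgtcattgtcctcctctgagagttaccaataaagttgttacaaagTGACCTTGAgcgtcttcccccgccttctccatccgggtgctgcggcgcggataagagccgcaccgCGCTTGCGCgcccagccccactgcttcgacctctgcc
Cox7a1: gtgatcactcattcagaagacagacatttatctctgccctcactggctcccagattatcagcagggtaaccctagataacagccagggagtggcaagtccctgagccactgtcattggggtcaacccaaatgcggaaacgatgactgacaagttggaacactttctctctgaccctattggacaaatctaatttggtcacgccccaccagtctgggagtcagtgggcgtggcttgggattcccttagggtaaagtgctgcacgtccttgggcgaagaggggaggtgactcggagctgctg
The letters searched were GCGCANGCG, the core of the site of nuclear respiratory factor NRF1, CCGGAAG, the core read by ETS factors such as GABPA, AAGATGGCG for YY1 and TCAAGGTCA for the estrogen-related receptors. The capitals in Atp5e and Uqcrh are the ETS letters, and those in Atp5g3 are the receptor letters and then the NRF1 letters. Cox7a1 held none of the 4 in this window. Promoters were found for 73 of the 88 genes. The NRF1 letters stood in 26.9% of the 78 promoters of these genes and in 6.25% of all 32851 promoters, and the ETS letters in 24.4% and 8.86%. The YY1 letters stood in 8.97% and 1.40%, and the receptor letters in 2.56% and 0.423%. The matches in the 4 promoters shown do not overlap. The NRF1 letters were shortened from a longer core after its shares had been seen, and the shorter letters match more promoters in both sets. No test was made, and a match of letters is not a bound site.

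The arrays differed in ways that bear on every comparison with tissue, and the B1 repeat also separated 3D from 2D. Levels are log2 values made by the RMA algorithm, which gives no detection call, and differences are differences of these log2 levels. Gapdh is read near its 3′ and its 5′ end, and the gap between the ends was 0.36 to 1.27 on the 8 culture arrays, 1.10 on tissue replicate 1 and 1.0 on tissue replicate 4. On tissue replicates 2 and 3 it was 3.45 and 3.05. The same gap of Actb was 1.12 to 1.89 in culture and 1.63, 3.55, 4.21 and 2.21 on tissue replicates 1 to 4, so that replicate 4 also lay above the cultures. The bioB spike-in control read 7.78 to 8.59 in culture and 9.12 to 12 in tissue, and the 4962 bright probe sets had a median shift against culture of -0.25, -0.64, -1.30 and -0.27 on the tissue arrays. All 4 tissue arrays thus differed from the cultures in these measures, replicates 2 and 3 by more. Their part in the results was not tested. The spread of all probe sets was also narrower there, with an SD of 2.14 and 1.93 against 2.31 to 2.42 on the other 10 arrays. The probe set of the B1 repeat read 10.8 to 12.67 in 2D and 9.12 to 9.98 in 3D, with no overlap. All 4 tissue arrays read above both cultures in it, with a median of 14.09. The part of this measure in the difference between 3D and 2D was not tested. Over the 88 genes, the median deviation from each gene's own mean was 0.39, 0.07, -0.38 and 0.49 on tissue replicates 1 to 4. On the 2D arrays it was 0.02, -0.09, 0.21 and 0.09, and on the 3D arrays -0.16, -0.28, -0.11 and -0.14. All 4 of the 3D arrays thus read below the 4 of the 2D arrays, while tissue replicates 1 and 4 read above every culture array and replicate 3 below. The counts and the main gene differences with tissue are therefore given with all 4 tissue arrays and without replicates 2 and 3. That choice was made after the data, these 88 genes included, had been seen. Replicates 1 and 4 are the tissue arrays on which the 88 genes read highest, so higher counts there are not independent of the choice.

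**Figure D1:**
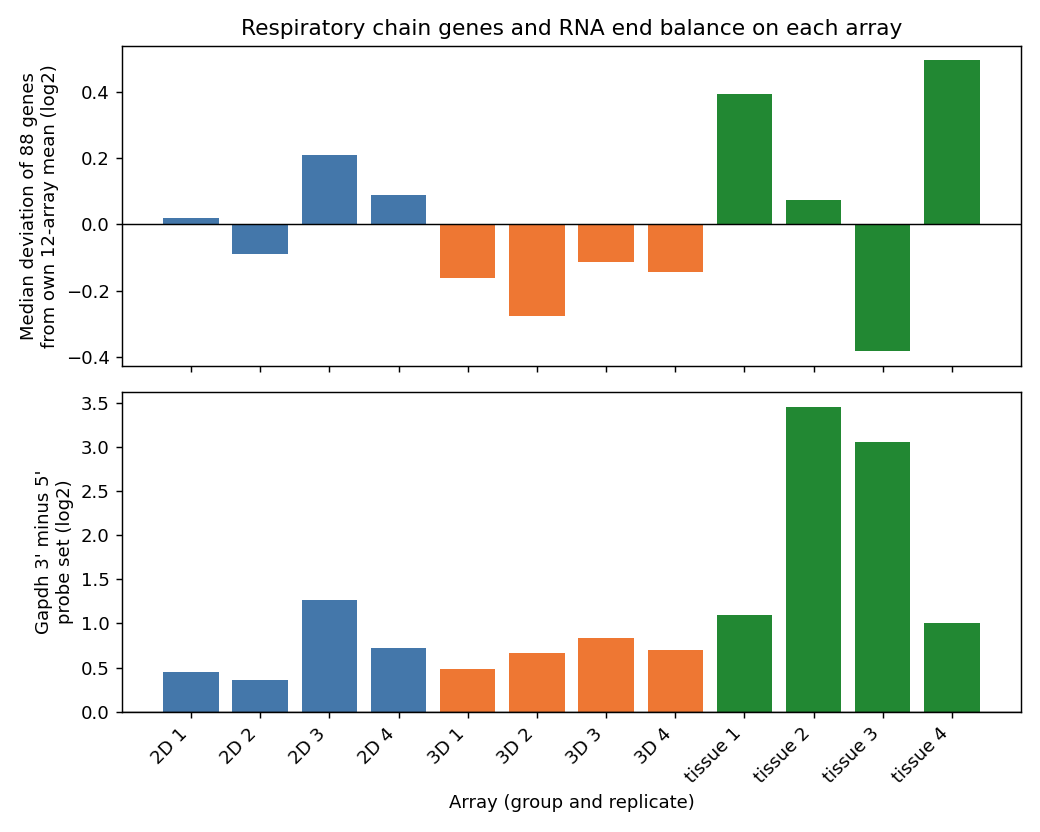
Median deviation of the 88 genes from their own mean over 12 arrays (upper bars, log2) and the gap between the 3′ and 5′ probe sets of Gapdh (lower bars, log2), for each array, coloured by group. The 4 arrays of 3D all lie below 0, and tissue replicates 2 and 3, with Gapdh gaps of 3.45 and 3.05, read lower than tissue replicates 1 and 4.

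The study asked how cells cultured in scaffolds compare with cells on flat surfaces. The respiratory chain genes read slightly lower in 3D than in 2D, but no single gene passed the test. The median difference, 3D minus 2D, was -0.22 against 0.01 over all genes, and 79 of the 88 genes were below 0. By limma with Benjamini-Hochberg adjustment 0 genes were lower, where 0.0% of all genes were, and 0 were higher, where 0.0165% were. At an unadjusted p under 0.05, 37 were lower and 0 higher, against 5.5% and 7.57% of all genes. The methods' t-test gave 35 lower before adjustment and 0 after it, for which no share of all genes is given. In 25 of the 88 genes all 4 arrays of 3D lay below all 4 of 2D, against 2.87% of all genes, and in 0 above, against 4.49%. Other gene lists were read in this comparison too. The median was -0.35 for 14 glycolysis genes (13 below 0) and -0.135 for 13 of the outer membrane, import and carriers (11 below 0). It was -0.13 for 35 other assembly factors and carriers (27 below 0) and -0.09 for 16 Krebs cycle and pyruvate dehydrogenase genes (12 below 0). For 13 regulators of mitochondrial biogenesis it was 0.09 (3 below 0). ND5, coded by mitochondrial DNA, was higher by 0.26 (adjusted p = 0.434). In these bulk samples, fewer cells of a type and less RNA per cell cannot be told apart.

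In complex I all 28 accessory genes were below 0, with a median difference of -0.27, and 17 of them had an unadjusted p under 0.05. Ndufb2, a small subunit of the membrane arm, read 10.99, 10.68, 11.15 and 10.92 in 2D and 10.33, 10.01, 10.37 and 10.36 in 3D. The groups did not overlap, and its difference was -0.67 (95% interval -0.95 to -0.39, adjusted p = 0.149). A second probe set of Ndufb2 gave -0.56. Ndufb9 differed by -0.49 (adjusted p = 0.247) and Ndufb6 by -0.47 (adjusted p = 0.198), also in the membrane arm. The core genes had a median of -0.27, but Ndufs1, which holds iron-sulfur clusters, was at 0.06. The assembly factors had a median of -0.16.

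Complex II, which is both a respiratory complex and a Krebs cycle enzyme, read almost level. Its 4 genes had differences of -0.10 to 0.05, and 0 of the 4 had an unadjusted p under 0.05 by limma. In complex III the lowest values were those of small subunits. Uqcrh, the hinge protein that helps cytochrome c to bind, read 11.34, 11.39, 11.78 and 11.63 in 2D and 10.85, 10.73, 11.17 and 11.03 in 3D, a difference of -0.59 (95% interval -0.89 to -0.29, adjusted p = 0.192). All of its 3D arrays were below its 2D arrays, and its second probe set gave -0.40. Uqcrq, another small subunit, had the lowest adjusted p of all 88 genes, 0.137, with a difference of -0.57. With weights for array quality it was the 1 gene past the threshold (-0.52, adjusted p = 0.0352). The large core proteins Uqcrc1 and Uqcrc2 differed by 0.07 and -0.17, and Uqcrb, also a small subunit, by only -0.07.

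In complex V the differences ran from -0.97 to 0.05. Atp5e, the epsilon subunit of the central stalk, read 10.81, 10.62, 11.29 and 11.03 in 2D and 9.84, 9.66, 10.22 and 10.17 in 3D. This was the widest gap among the 88 genes, -0.97 (95% interval -1.36 to -0.57, adjusted p = 0.148), a 1.95-fold lower level with no overlap. The small membrane proteins Atp5md and Atp5l followed, with -0.55 (adjusted p = 0.191) and -0.52 (adjusted p = 0.189). The subunits of the catalytic head had -0.10 for Atp5a1 (alpha) and 0.05 for Atp5b (beta). The other subunits of the central stalk, Atp5c1 (gamma) and Atp5d (delta), had -0.06 and 0.00. Of the 3 genes for the c-ring, the rotor that protons turn, Atp5g1 differed by -0.40, Atp5g2 by -0.09 and Atp5g3 by -0.16. In complex IV the median was -0.22. The widest difference there was that of Ndufa4l2, a paralog of Ndufa4 known to be induced by low oxygen, which read 7.89, 8.99, 9.95 and 8.37 in 2D and 7.59, 7.97, 8.33 and 7.87 in 3D. Its groups overlapped (-0.86, adjusted p = 0.456).

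**Figure D2:**
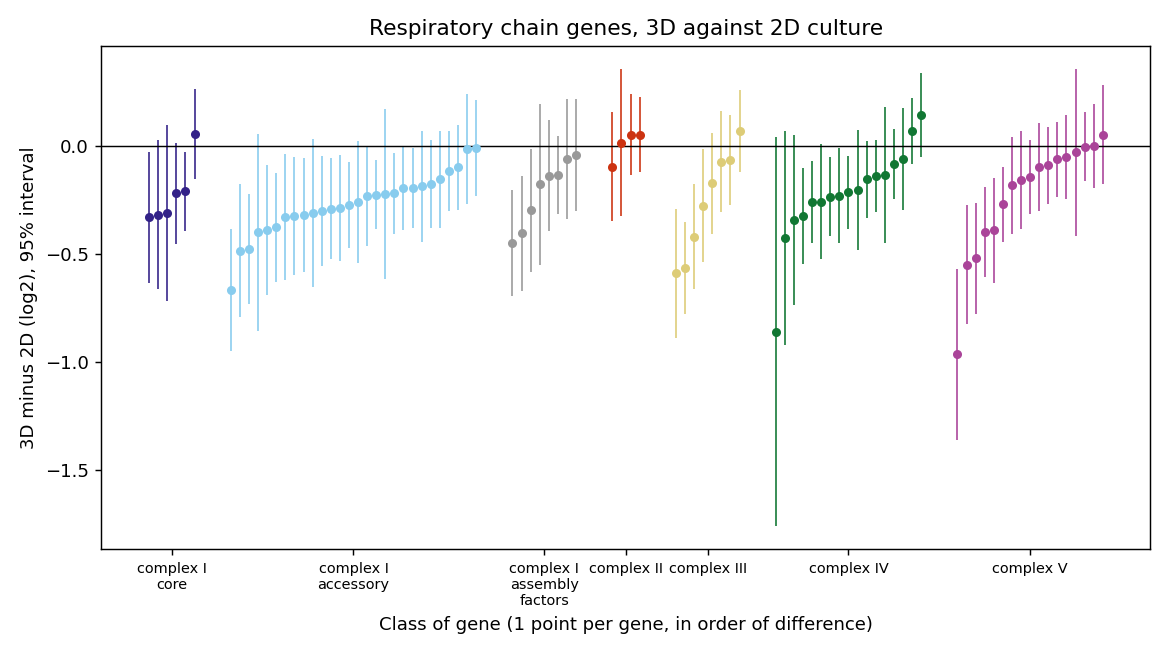
Difference of 3D minus 2D (log2) with its 95% interval for each of the 88 genes, 1 point per gene, grouped and coloured by class. The 28 accessory genes of complex I all lie below 0, the 4 genes of complex II lie within -0.10 to 0.05, and the lowest point is Atp5e at -0.97.

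Markers of cell types were read in the same comparison, and 0 in any list passed the threshold. At an unadjusted p under 0.05 by limma, 7.57% of all genes were higher and 5.5% lower. The 10 sympathetic neuron markers measured had a median difference of -0.72 and 3 with an unadjusted p under 0.05, all lower, with array means of 9.50 to 11.30 in 2D and 9.65 to 10.63 in 3D, and Th, the enzyme that starts noradrenaline synthesis, was measured at 9.59 to 12.44 and 9.44 to 10.63. The 12 pan-neuronal markers had a median of -0.22, with 11 below 0 and 0 with an unadjusted p under 0.05. The 8 fibroblast and matrix markers had a median of 0.33, with 2 higher and 0 lower at an unadjusted p under 0.05, and the 8 macrophage markers -0.35, with 0 either way. The 7 Schwann and satellite glia markers had a median of 0.38 but went both ways, with 4 higher and 1 lower. The part of these in the respiratory chain differences was not tested. Without 2D replicate 4 and 3D replicate 1 the median was -0.21 with 0 genes past the threshold.

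The next question was how freshly dissected tissue compares with 2D cultures. With all 4 tissue arrays, 14 of the 88 genes were higher in tissue and 0 lower by limma, where 9.87% of all genes were higher and 14.3% lower. The median difference was 0.08, against 0.03 over all genes and -0.35 over the 2936 genes with a mean level of 10 or more. At an unadjusted p under 0.05, 21 were higher and 1 lower, Atp5g2 of the c-ring, against 18.7% and 22.2% of all genes. In 14 genes all tissue arrays lay above all 2D arrays, against 15.3%, and in 0 below, against 18.5%. Without tissue replicates 2 and 3, 27 were higher and 0 lower, against 10.1% and 12.3% of all genes. The median was then 0.37, against 0.01 over all genes and -0.10 over those with a mean level of 10 or more. Of the 14 genes, 12 were among the 27, and Cox6b1 and Ndufb7 were not. Tissue replicates 1 and 4 both lay above all 2D arrays in 55 genes, against 24.8% of all genes.

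Cox7a1, the heart and skeletal muscle form of a complex IV subunit, differed most. It read 6.13, 5.63, 6.16 and 5.13 in 2D, 5.34, 5.20, 5.30 and 5.51 in 3D, and 7.69, 7.22, 7.06 and 8.35 in tissue. Every tissue array lay above every culture array, and the difference against 2D was 1.82 ± 0.33 (SE, adjusted p = 0.00678), or 2.26 without replicates 2 and 3 (adjusted p = 0.00781). Skeletal muscle markers read far above the cultures on 3 of the 4 tissue arrays. Myh1, a fast myosin of skeletal muscle, read 4.38, 11.23, 10.94 and 10.26 on tissue replicates 1 to 4, against 3.32 to 3.92 in culture, and Tnnc2, a troponin of fast muscle, 4.24, 9.30, 8.15 and 8.96. The 16 muscle markers had array means of 5.91 to 8.66 in tissue and 5.59 to 5.85 in culture. Cox7a1 was at 7.69 on tissue replicate 1, where Tnnc2 lay within its culture range of 3.94 to 4.35 and Myh1 above its own. The muscle forms left out by name, Cox8b and Cox6a2, read 6.90 and 6.75 on that array. In culture Cox8b was at 5.56 to 6.19 and Cox6a2 at 6.79 to 7.41. The part of muscle in the Cox7a1 difference was not tested.

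In complex I, 5 of 28 accessory genes and 1 of 8 assembly factors were higher in tissue than in 2D. Ndufb8, a membrane arm subunit, read 11.28, 11.08, 11.36 and 11.19 in 2D and 12.31, 12.19, 12.02 and 12.49 in tissue, with replicates 2 and 3 also above every 2D array. Its difference was 1.03 ± 0.15 (SE, adjusted p = 0.00275), and 1.17 without replicates 2 and 3. A second, dim probe set of the same gene gave -0.97 (adjusted p = 0.101), so the probe sets disagreed. Ndufa5 was higher by 1.18 (adjusted p = 0.0102, and 0.85 without those replicates) and Ndufb4 by 1.42 (adjusted p = 0.00325, and 1.14 without them), the latter at levels of only 4.62 to 6.79. Ndufaf8, an assembly factor, read 9.18, 9.06, 8.69 and 9.30 in 2D and 10.14, 10.27, 10.20 and 10.31 in tissue, a difference of 1.17 with and without those replicates (adjusted p = 0.00209 and 0.00921). All 4 tissue arrays lay above its 2D arrays.

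Among the others, Atp5e was higher by 0.98 (adjusted p = 0.0179) with tissue levels of 12.19, 11.87, 11.40 and 12.22. Atp5mpl rose by 0.98 (adjusted p = 0.0283), Atp5md by 0.62 (adjusted p = 0.0481) and Atp5a1 by 0.44 (adjusted p = 0.0476). Other probe sets of Atp5a1 gave -0.86 and 0.46, neither past the threshold. In complex III, Uqcr11 was higher by 0.81 (adjusted p = 0.0457). With replicates 2 and 3 left out, the differences of Atp5e, Atp5mpl, Atp5md, Atp5a1 and Uqcr11 were 1.27, 1.33, 0.86, 0.47 and 1.17, all past the threshold. In complex IV, Cox7c was higher by 1.51 (adjusted p = 0.0253), at low levels of 5.69 to 6.34 in 2D. Its tissue levels were higher on replicates 2 and 3, 8.05 and 8.27, than on replicates 1 and 4, 6.71 and 6.69, and without replicates 2 and 3 the difference was 0.78 (adjusted p = 0.0402). None of the 6 core genes of complex I and none of the 4 genes of complex II passed the test, and at an unadjusted p under 0.05 these counts were 2 and 0 by limma. None of them passed without replicates 2 and 3 either.

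The largest number of calls was in the comparison of tissue with 3D. Here 29 of the 88 genes were higher in tissue and 0 lower by limma, where 15.5% and 20.1% of all genes were. The median difference was 0.32, against 0.03 over all genes and -0.35 over the 2936 genes with a mean level of 10 or more. At an unadjusted p under 0.05, 34 were higher and 1 lower, again Atp5g2, against 21.7% and 25.9% of all genes. In 30 genes all tissue arrays lay above all 3D arrays, against 18.3%, and in 1, Atp5b, below, against 24.1%. Without tissue replicates 2 and 3, 64 were higher and 0 lower, against 22.7% and 24.6% of all genes. The median was then 0.60, against -0.01 over all genes and -0.12 over those with a mean level of 10 or more. Of the 29 genes, 28 were among the 64, and Cox5a was not. Of the 88 other probe sets of these genes, 51 were then higher and 3 lower, the 3 being from Ndufab1 and Ndufb8. With all 4 tissue arrays, 21 of them were higher and 3 lower. Tissue replicates 1 and 4 both lay above all 3D arrays in 68 genes, against 29.1% of all genes. Both comparisons use the same tissue arrays, so they are not independent, and all 14 genes called against 2D were called against 3D.

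By class, 4 of 6 core genes of complex I, 12 of 28 accessory genes, 1 of 8 assembly factors, 0 of 4 of complex II, 2 of 8 of complex III, 4 of 17 of complex IV and 6 of 17 of complex V were higher in tissue than in 3D. Without replicates 2 and 3 these were 4, 25, 5, 1, 6, 11 and 12. Atp5e differed by 1.95 ± 0.22 (SE, adjusted p = 0.000308), with 3D arrays at 9.66 to 10.22 and tissue arrays at 11.40 to 12.22. Cox7a1 differed by 2.24 (adjusted p = 0.000399), Cox7c by 1.85 (adjusted p = 0.00601), Ndufa5 by 1.49 (adjusted p = 0.000672), Ndufb4 by 1.43 (adjusted p = 0.00161) and Ndufb8 by 1.40 (adjusted p = 0.00028). With replicates 2 and 3 left out these 6 differences were 2.23, 2.68, 1.12, 1.16, 1.14 and 1.55, all past the threshold. The dim probe set of Ndufb8 went the other way, -1.15 (adjusted p = 0.0257). Ndufb2 differed by 1.26 (adjusted p = 0.0598) with all tissue arrays and by 2.11 (adjusted p = 2.83e-05) without replicates 2 and 3.

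Markers of cell types differed between tissue and the cultures as well. Their counts stand beside 15.5% of all genes higher and 20.1% lower against 3D, and 9.87% and 14.3% against 2D. Of the 10 sympathetic neuron markers, 8 were higher in tissue than in 3D and 0 lower, with a median of 2.19, and 4 were higher than in 2D, with a median of 1.22. Of 12 pan-neuronal markers, 5 were higher than in 3D and 2 than in 2D, with medians of 0.60 and 0.52. The 8 macrophage markers had 6 higher and 1 lower than in 3D (median 1.39), and of the 6 endothelial markers 4 were higher (median 1.39). The fibroblast and matrix markers had 0 higher and 2 lower of 8 (median -1.03), and the 7 Schwann and satellite glia markers 2 higher and 3 lower. Against 2D the counts higher and lower were 1 and 1 for macrophage and 3 and 0 for endothelial markers. They were 2 and 2 for fibroblast and matrix markers and 1 and 3 for Schwann and satellite glia markers. On tissue replicates 1 and 4 alone, all 10 sympathetic and 11 of the pan-neuronal markers were higher than in 3D, with medians of 2.52 and 1.08, where 22.7% of all genes were higher. The part of these markers in the respiratory chain differences was not tested.

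Within complex I, the core genes higher in tissue than in 3D were Ndufs8 (0.85, adjusted p = 0.00278) and Ndufs7 (0.71, adjusted p = 0.00269), which carry iron-sulfur clusters, and Ndufv2 (0.90, adjusted p = 0.0329) and Ndufv1 (0.39, adjusted p = 0.0283), which form the NADH-binding tip. Without replicates 2 and 3 these were 0.99, 0.65, 0.42 and 0.40, all past the threshold. Their other probe sets did not all read the same way with all tissue arrays. A second set of Ndufs7 gave -0.04 (adjusted p = 0.95), those of Ndufv1 gave 0.11 and -0.34 (adjusted p = 0.593 and 0.434), those of Ndufv2 gave -0.12 and 0.61 (adjusted p = 0.807 and 0.09), and of the others of Ndufs8 the highest gave 0.83 (adjusted p = 0.00579) and the lowest -0.41 (adjusted p = 0.596). Ndufs1 and Ndufs3 had -0.71 and -0.62 with all tissue arrays and -0.01 and 0.13 without replicates 2 and 3, none past the threshold. Ndufv2 read 12.31, 12.82, 13.22 and 11.84 in tissue, and so was one of the 15 of the 88 genes whose mean was higher on replicates 2 and 3 than on replicates 1 and 4. Ndufb7 was another, at 11.69, 12.26, 12.69 and 11.68. Among the assembly factors, Ndufaf8 was the 1 called with all tissue arrays. Without replicates 2 and 3, Ndufaf6 (0.99, adjusted p = 0.000196), Ndufaf5 (0.89, adjusted p = 0.00235), Ndufaf3 (0.58, adjusted p = 0.0207) and Ndufaf7 (0.50, adjusted p = 0.00448) were also higher than in 3D, while Ndufaf4 had 0.20 (adjusted p = 0.39).

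In complex III, Uqcr11 (1.09, adjusted p = 0.009) and Uqcrh (0.91, adjusted p = 0.0122) were higher in tissue than in 3D. Uqcrh read 12.09, 11.80, 11.29 and 12.22 in tissue, above all 3D arrays on each. Without replicates 2 and 3, Uqcrq (0.94, adjusted p = 0.000379), Uqcr10 (0.94, adjusted p = 0.00103), the Rieske iron-sulfur protein Uqcrfs1 (0.44, adjusted p = 0.0171) and Uqcrb (0.31, adjusted p = 0.0256) passed as well, and the core proteins Uqcrc1 and Uqcrc2 had -0.06 and 0.15. In complex V the genes called with all tissue arrays were Atp5e, Atp5md (1.17, adjusted p = 0.00137), Atp5mpl (1.01, adjusted p = 0.0083), Atp5k (0.99, adjusted p = 0.00448), Atp5g3 (0.56, adjusted p = 0.0177) and Atp5a1. Without replicates 2 and 3, Atp5l (1.21, adjusted p = 0.000169), Atp5g1 (0.98, adjusted p = 0.000774), Atp5j2 (0.72, adjusted p = 0.00152), Atp5h (0.66, adjusted p = 0.000858), Atp5o (0.60, adjusted p = 0.00448) and Atp5d (0.32, adjusted p = 0.0372) were added. Atp5b, Atp5c1, Atp5g2, Atp5j and Atp5pb passed in neither, with differences of -0.21 to 0.08 without those replicates.

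In 14 genes all 4 tissue arrays lay above all 8 culture arrays, against 12.1% of all genes. These were Atp5a1, Atp5e, Atp5g3, Atp5mpl, Cox6b1, Cox7a1, Cox7c, Ndufa5, Ndufaf8, Ndufb4, Ndufb7, Ndufb8, Ndufc2 and Ndufv3.

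**Figure D3:**
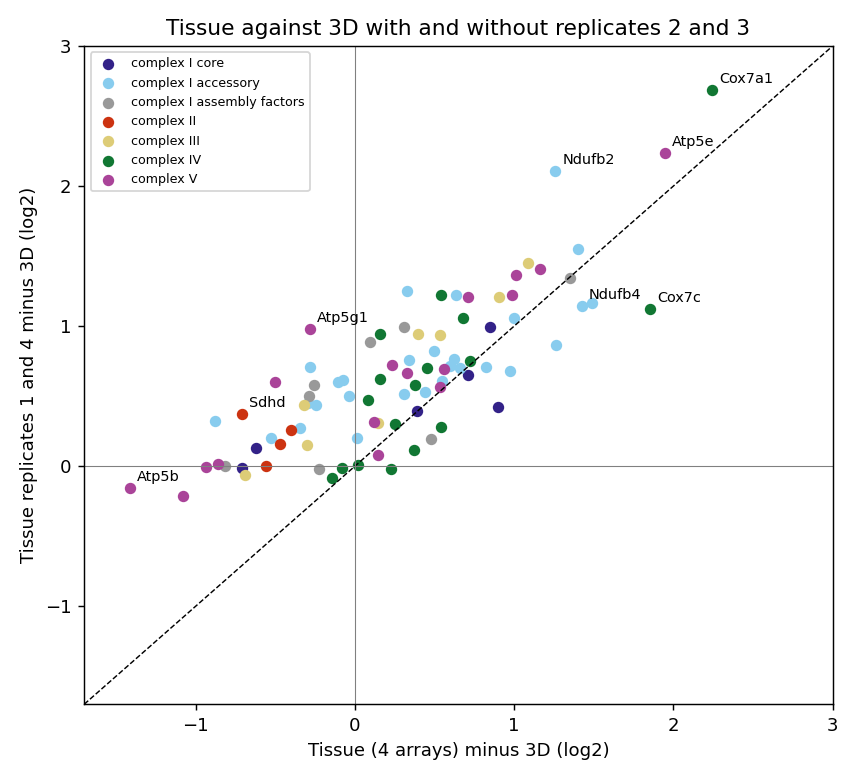
Difference of tissue minus 3D (log2) for each of the 88 genes, with all 4 tissue arrays on the horizontal axis and with tissue replicates 1 and 4 alone on the vertical axis, coloured by class; the dashed line marks equal values. Most points lie above the line, Cox7a1 and Atp5e lie far to the upper right on both axes, and Atp5b moves from -1.41 to -0.15.

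Some genes differed widely among the tissue arrays. Atp5b, the beta subunit where ATP is made, read 12.70, 10.88, 9.44 and 12.65 on tissue replicates 1 to 4, against 12.50 to 12.94 in 2D and 12.79 to 12.88 in 3D. Replicates 1 and 4 lay within the 2D range and replicates 2 and 3 far below, and the difference against 3D was -1.41 with all arrays (adjusted p = 0.12) and -0.15 without them (adjusted p = 0.197). Over the 88 genes, replicates 2 and 3 read -2.52 to 1.46 relative to replicates 1 and 4, with a median of -0.72. For 34 genes (38.6%) the gap was below -1, against 848 of the 2936 genes (28.9%) with a mean level of 10 or more. All 4 genes of complex II were among the 34. Sdhb, the iron-sulfur subunit, read 11.62, 10.89, 10.24 and 11.75 in tissue and 11.55 to 11.78 in culture. Sdhd, a membrane anchor, was at -0.71 against 3D with all arrays (adjusted p = 0.394) and at 0.37 without replicates 2 and 3 (adjusted p = 0.0225). Sdha, the flavoprotein, and Sdhc, the other anchor, had 0.15 and 0.26 without them, neither past the threshold.

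**Figure D4:**
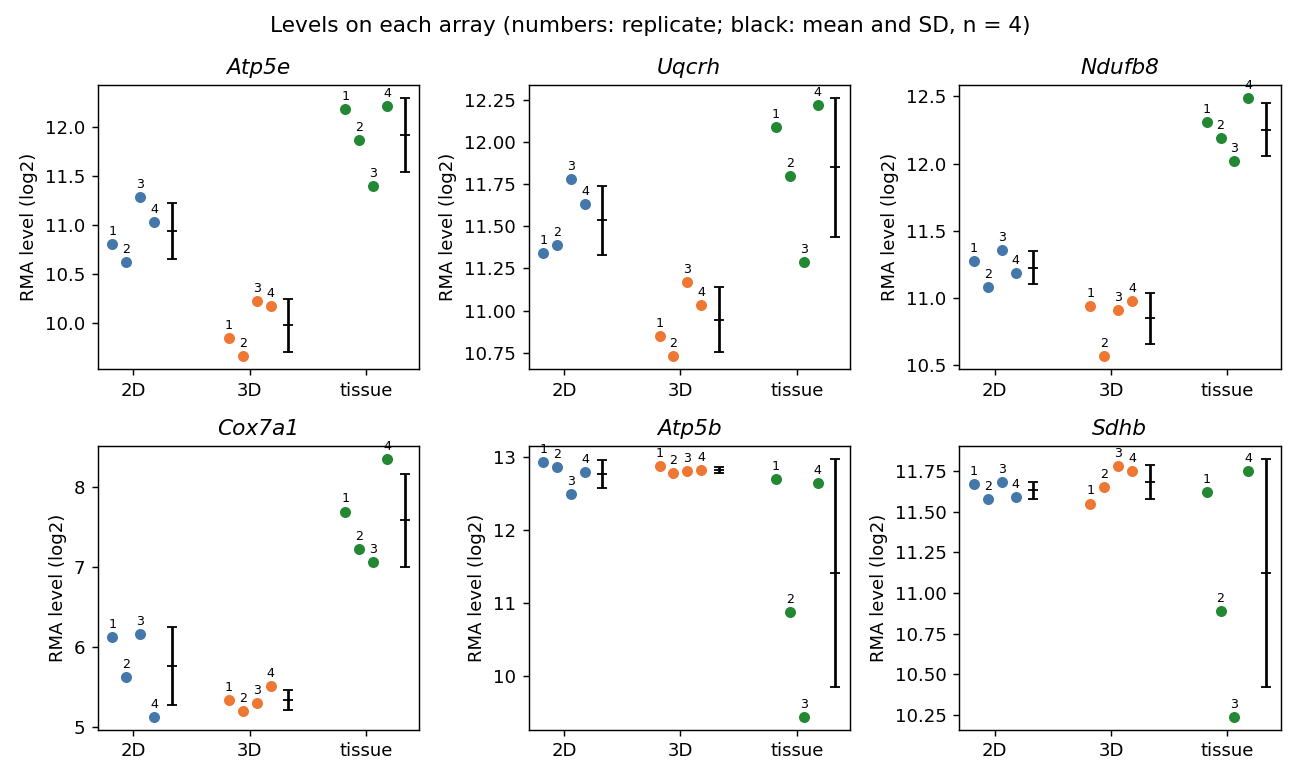
RMA levels (log2) of 6 genes on each array, numbered by replicate, with the mean and SD of each group (n = 4) in black. Tissue replicates lie above all cultures for Atp5e, Ndufb8 and Cox7a1, while for Atp5b and Sdhb replicates 2 and 3 fall below all other arrays.

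Complex IV has tissue forms of several subunits, and their levels are given side by side. Cox4i1, the common form of subunit 4, was at 12.51 to 12.65 in 2D, 12.22 to 12.42 in 3D and 12.33 to 13.04 in tissue, and its tissue difference against 3D passed the test without replicates 2 and 3 (0.58, adjusted p = 0.00304). Cox4i2, a form known from lung and from low oxygen, stayed at 5.85 to 6.99 on all arrays with no call. Cox7a2, the common counterpart of Cox7a1, was at 12.79 to 13.62 and was higher in tissue than in 3D without those replicates (0.70, adjusted p = 0.000763). Cox7a2l, which joins complexes into supercomplexes, differed by -0.14 from 3D with all arrays and by -0.09 without them. Cox6b1 was higher in tissue than in 3D by 0.72 (adjusted p = 0.002), and by 0.75 without those replicates. Cox6b2, a testis form, read 5.07 to 6.90 over the 12 arrays, with a difference from 3D of 0.15 (adjusted p = 0.775) with all arrays. Without those replicates it was higher than in 3D by 0.94 (adjusted p = 0.000823) and than in 2D by 0.81 (adjusted p = 0.0435). Ndufa4, a complex IV subunit, was at 11.05 to 11.56 in culture and at 12.42, 11.67, 10.53 and 12.49 in tissue, and differed from 3D by 1.22 without replicates 2 and 3 (adjusted p = 7.93e-05). Ndufa4l2 was not called.

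Other genes of mitochondrial energy supply were read from lists chosen with earlier results known. None of the 16 Krebs cycle and pyruvate dehydrogenase genes measured was higher or lower in tissue against 2D or against 3D with all tissue arrays by limma, and at an unadjusted p under 0.05 there were 0 against 2D and 1 against 3D. Without replicates 2 and 3, Ogdh was higher against both (1.22, adjusted p = 0.00871, and 1.5, adjusted p = 0.000196). The counts that follow, for this and the remaining lists, stand beside 9.87% of all genes higher and 14.3% lower against 2D, and 15.5% and 20.1% against 3D. Without replicates 2 and 3 these shares were 10.1% and 12.3% against 2D, and 22.7% and 24.6% against 3D. Of 35 other assembly factors and carriers, 2 were higher and 2 lower against 2D, and 4 and 2 against 3D. These became 6 and 2, and 12 and 3, without replicates 2 and 3. Cox17, the copper chaperone of complex IV, was higher than in 2D by 0.94 (adjusted p = 0.0143), and by 0.73 (adjusted p = 0.0464) without those replicates. Of 13 regulators of mitochondrial biogenesis, 2 were higher and 4 lower against 2D, and 2 and 6 against 3D, which became 1 and 4, and 2 and 8, without those replicates. Ppargc1a, a coactivator of respiratory genes, read 5.66, 5.50, 6.19 and 5.38 in 2D and 7.18, 6.59, 6.65 and 6.93 in tissue (1.16, adjusted p = 0.00789, and 1.37 without replicates 2 and 3), and Ppargc1b was higher by 0.88 (adjusted p = 0.0276, and 0.0827 without replicates 2 and 3). Gabpa, which codes for an ETS factor, was lower, with a difference of -1.30 (adjusted p = 0.0113, and -0.94 without replicates 2 and 3), at 10.21 to 10.82 in 2D and 8.55 to 9.82 in tissue.

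Of 13 genes of the outer membrane, import and carriers, 1 was higher and 2 lower against 2D and 1 and 1 against 3D, or 1 and 2, and 4 and 1, without replicates 2 and 3. Slc25a4, the ADP/ATP carrier of heart and muscle, was higher than in 2D by 0.52 (adjusted p = 0.0424), a call that was lost without those replicates (0.52, adjusted p = 0.0759). Slc25a5, the carrier of dividing cells, was lower with a difference of -1.63 (adjusted p = 0.0439), which was -0.65 (adjusted p = 0.0104) without them. Of 14 glycolysis genes, 1 was higher and 3 were lower against 2D, while 3 were higher and 1 was lower against 3D. Without those replicates these became 2 and 2, and 6 and 2. Hk2, the hexokinase that binds mitochondria, read 9.70 to 11.08 in 2D, 8.74 to 9.50 in 3D and 6.52 to 7.16 in tissue, a tissue difference from 2D of -3.38 (adjusted p = 0.000325), and of -3.57 without replicates 2 and 3. The cell division markers had a median of -4.09 in tissue against 2D. Of the 13 subunits coded by mitochondrial DNA, 1, ND5, had a named probe set, and it read 12.17 to 13.83 over the 12 arrays with no call.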

How the data were processed

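Total RNA of 12 samples (3 groups of 4, from the sample labels) was read on Affymetrix Mouse Genome arrays. The authors deposited log2 expression values made with RMA in Expression Console, with no version stated, and no unit was changed. The quantile step of RMA is meant to equalise the arrays' distributions and can hide a shift that most genes share. The deposited distributions still differed, with upper quartiles of 7.91 to 8.45 in tissue and 8.51 to 8.59 in 2D. Of 45037 probe sets tested, with 64 controls left out, 34945 had 1 symbol in the platform annotation, 932 several and 9160 were unnamed here. The probe set of highest mean stood for each of 18193 genes. The 88 genes had 176 probe sets, and 50 had several. Genes known only through probe sets of several symbols were not analysed here.

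Groups were compared in pairs, 8 arrays at a time, by limma 3.58.1 (lmFit and eBayes, R 4.3.3, statmod 1.5.0). P-values were adjusted by Benjamini-Hochberg over the 45037 probe sets, with 0.05 as the threshold. Intervals are 95%. The script was tested on simulated data. The members, lists and tests were chosen with earlier results of these data known. The genes named are the 6 highest and 6 lowest past the threshold in each comparison, the 2 of highest mean in each class, isoform pairs by name, and the 3 smallest adjusted p in each pathway list. All other members named were chosen after their values were seen. Alternatives were 1 fit of 12 arrays, array weights, a robust prior with a trend, a dim filter (a level of 6 on 4 arrays, 26551 probe sets), cyclic loess, centring, a replicate block, other probe sets of a gene, the methods' t-test and leaving out arrays. Leaving out tissue replicates 2 and 3, and 2D replicate 4 with 3D replicate 1, was added after seeing the data. Scan dates were not used here, so no batch was tested. No 2 arrays were identical (smallest root mean square difference 0.187).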

Additional observations from a re-analysis of the deposited data

Results flagged for a closer look

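In 88 genes and 3 groups, 264 sets of 4 arrays were searched for 1 array far from the other 3. There were 8 such readings in the 264 sets, where chance gives about 1 in 20 if the sets are independent. The sets share the same 12 arrays, so this rate cannot decide whether the readings are more frequent than chance. On 3D replicate 2, 6 genes read low. This array had the lowest median deviation of the 88 genes among the culture arrays, -0.28, so these 6 are not independent. Atp5c1 read 12.04 with the others at 12.16 to 12.17, Atp5g1 read 10.27 with the others at 10.44 to 10.46, and Atp5o, a peripheral stalk subunit, read 11.47 with the others at 11.62 to 11.65. Cox4i1 read 12.22 there with the others at 12.39 to 12.42, Ndufb2 read 10.01 with the others at 10.33 to 10.37, and Ndufb8 read 10.57 with the others at 10.91 to 10.98. On 3D replicate 3, Atp5g2 read 11.51 with the others at 11.33 to 11.34. On 2D replicate 3, Ndufv1 read 12.16 with the others at 11.46 to 11.57.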

How the results depend on the processing

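Between 3D and 2D, 1 gene was lower with array weights and 35 with the methods' t-test before adjustment, and the median was -0.26 to -0.17 when each array was left out. Against 2D the 14 higher became 36 with array weights, 36 with cyclic loess, 9 with a trend and robust prior, 23 with the methods' t-test before adjustment and 27 without tissue replicates 2 and 3. Leaving out each array gave 5 to 21, with 5 without 2D replicate 1 or 2, 6 without 2D replicate 4 or tissue replicate 2, 9 without tissue replicate 1 and 21 without tissue replicate 3. The 0 lower became 1 in a fit of 12 arrays and 0 to 1 (Atp5g2, without tissue replicate 4) with each array left out, and the median of 0.08 became 0.51 with cyclic loess and 0.02 to 0.24 with each array left out. Against 3D the 29 higher became 52 with array weights, 50 with cyclic loess, 64 without tissue replicates 2 and 3 and 22 to 44 with each array left out (44 without tissue replicate 3). The 0 lower became 1 in a fit of 12 arrays (Atp5g2), 1 with the probe set of highest SD (Ndufb8) and 0 to 2 with each array left out (Atp5b without tissue replicate 1, Atp5g2 and Uqcrc1 without tissue replicate 4). The median of 0.32 became 0.72 with cyclic loess, 0.019 with the probe set of highest SD, 0.60 without tissue replicates 2 and 3, and 0.21 to 0.43 with each array left out. Centring on bright probe sets moved the median of all genes to 0.31 against both cultures, and that of the 88 genes to 0.37 and 0.59. Of all genes called, 40.9% were higher against 2D and 43.5% against 3D, which became 61.6% and 60.6% with centring, and 52.3% in both with cyclic loess. Members lower stayed at 0 under both.

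Signs turned, with a call in one of the fits, with the probe set of highest SD for Ndufb8 (-0.97 against 2D, -1.15 against 3D), Atp5a1 (-0.86 and -0.98), Ndufs4 (1.04 and 1.41), Ndufb11 (-0.065), Ndufb5 (-0.28), Ndufc2 (-0.38), Ndufs7 (-0.035), Ndufs8 (-0.41) and Ndufv1 (-0.34), the last 6 against 3D. They also turned for Uqcrq with cyclic loess (0.43 against 2D), and against 3D for Ndufa12 with array weights (0.42) and Ndufs4 with the mean of its probe sets (0.63). Without tissue replicates 2 and 3, they turned against 2D for Ndufaf5 (0.59) and Ndufaf6 (0.55), and against 3D for Atp5g1 (0.98), Atp5o (0.60), Ndufa10 (0.32), Ndufa12 (0.50), Ndufa8 (0.43), Ndufab1 (0.60), Ndufaf3 (0.58), Ndufaf7 (0.50), Ndufb1 (0.62), Ndufs4 (0.70), Ndufs5 (0.45), Sdhd (0.37) and Uqcrfs1 (0.44). The cause was not tested. The correlation of same-numbered arrays ran from -0.07 to 0.41. In each pair of groups, replicates 1 and 3 correlated best with their own number, and replicates 2 and 4 did not. Whether the numbers pair the arrays is therefore not settled. With a replicate block, 9 were higher against 2D, 25 against 3D and 0 lower between 3D and 2D. The fit without tissue replicates 2 and 3 has 2 tissue arrays. Dim genes such as Ndufb4 and Cox7c lie close to background.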
